A study of Drosophila melanogaster with 2 samples.

Results

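The genes described are the cytosolic ribosomal protein genes of Drosophila melanogaster, measured on 1 expression array of tdf mutant embryos and 1 of yw embryos. A gene was included when its updated symbol begins with RpL (large subunit) or RpS (small subunit), which took 37 of the 10843 genes with a probe set of their own, 22 named for the large and 15 for the small subunit. The array labelled tdf holds total RNA of embryos homozygous for a mutant allele of tdf, now called apontic (apt), a transcription factor gene; the homozygotes were recognised with the help of a CyOact-GFP balancer chromosome. The yw array holds total RNA of embryos of a stock marked with yellow and white. Both were kept for 16 h after egg laying at 25 °C, and the series set out to find genes regulated by TDF/Apt. The sources used here do not give the allele, any further markers of the mutant stock, the number of embryos in an extract or the spread of ages within it.

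The cytosolic ribosome translates nuclear mRNAs. Its small subunit reads the codon and its large subunit joins amino acids, and each carries many proteins around a core of rRNA. In flies the loss of 1 copy of many ribosomal protein genes gives the Minute phenotype of slow development and thin bristles. The embryo begins with ribosomes and ribosomal protein mRNAs supplied by the mother and later makes its own. Of the 37 genes, 7 carry a Minute locus name among their RefSeq synonyms, namely RpLP1, RpL32, RpL37A, RpS18, RpS21, RpS26 and RpS29.

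With 1 array per genotype, no difference below has a replicate check, and neither a test nor an error could be computed. A signal is the MAS5 intensity of a probe set in arbitrary units, and a log2 ratio is that of the array labelled tdf over the yw array, with signals below a floor of 97.3 raised to it. An effect of the mutation cannot be told apart from other differences between the stocks or in the exact age of the embryos. The targeted gene apt had a signal of 1051 on the array labelled tdf and 979 on the yw array. No loss of apt signal was seen. The sources used here do not say where the probe set lies relative to the lesion, which leaves the label unchecked by this gene. Of the marker genes with a probe set, all 11 for late embryonic cuticle and muscle, 6 of 7 for neurons and glia, 7 of 11 for ovary, eggshell and yolk and 2 of 12 for testis were measured. The cuticle and muscle genes were all higher on the array labelled tdf, with a median log2 ratio of 0.49 (0.19 after loess, where 8 of 11 lay above 0) and TwdlD 2.68-fold, Cpr49Af 2.63-fold and Cpr78Cb 2.57-fold higher. On the yw array Cpr49Af had a signal of 113 and Cpr78Cb one of 125, near the floor. The neuron and glia genes had a median of -0.15, with 2 of 6 above 0. The part of these marker differences in the results below was not tested. The poly(A) RNAs spiked in before labelling gave lower signals on the array labelled tdf, with a median log2 ratio of -0.91 over the 6 control probe sets above the floor on both arrays. Their part in the results below was not tested.

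Ribosomal protein genes gave some of the brightest signals in the embryo and differed little between the genotypes. Of the 37 genes, 33 were measured, meaning that the higher of the signals was at or above the floor, and 4 were not. None of the 33 was at least 2-fold higher, against 3.6% of the 7639 measured genes of the array, and none was at least 2-fold lower, against 6.19%. Nor did any reach 1.5-fold, which 13.2% of measured genes did upward and 15.3% downward. Large downward ratios were also missing among other bright genes, but upward ones were not. Of the 109 genes outside the group with a mean signal of 10000 or more, 3 were at least 2-fold higher and 0 lower. At 1.5-fold, 15 of the 109 were higher and 0 lower. The median log2 ratio of the 33 was 0.18 (1.13-fold), with a quartile range of 0.11 to 0.31, and that of all measured genes was 0.03, with a quartile range of -0.34 to 0.35. A ratio above 0 was found for 29 of the 33, against 52.4% of all measured genes. After loess, which subtracts the trend of the ratio with signal, 11 of the 33 lay above 0, against 51.5% of measured genes. That turn came mostly from the 26 ribosomal protein genes with a mean signal of 10000 or more. Of these, 23 lay above 0 as deposited (median 0.18) and 6 after loess (median -0.11). Of the 7 dimmer measured genes, 6 lay above 0 as deposited (median 0.24) and 5 after loess (median 0.27).

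**Figure D1:**
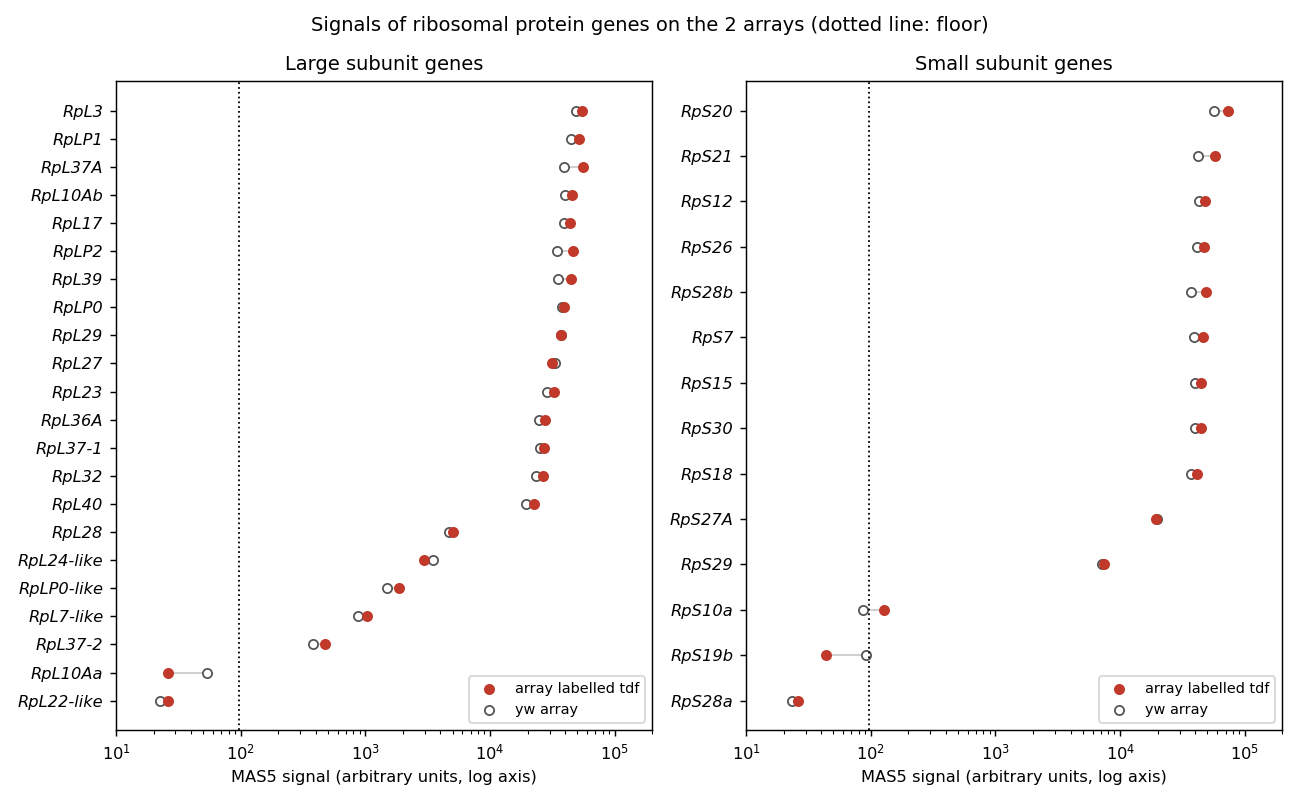
Signals of the 22 large subunit genes and 14 small subunit genes (rows) on the array labelled tdf (filled red points) and the yw array (open points), on a log axis in arbitrary MAS5 units, with the floor of 97.3 as a dotted line. In 25 of these genes both signals are at or above 19264, and the paralogue genes RpL10Aa, RpL22-like, RpS19b and RpS28a lie below the floor on both arrays.

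The subunits had nearly the same median ratio. The 20 measured large subunit genes had a median log2 ratio of 0.18 and ranged from -0.24 to 0.52, with 18 above 0. The 13 measured small subunit genes had a median of 0.17 and reached 0.45, with 11 above 0. The difference of the medians, large minus small, was 0.0096, and it was 0.032 after loess. Over the bright genes alone it was 0.0072 as deposited, 0.013 after loess and -0.010 under quantile normalisation. The difference was not tested. Without the 3 measured genes whose symbols end in -like, which are relatives of ribosomal proteins, the difference was 0.0072. Of the summed signal of all genes, large subunit genes made up 6.32% on the array labelled tdf and 5.84% on the yw array. Small subunit genes made up 5.31% on the array labelled tdf and 4.88% on the yw array. These shares are as deposited, and 67 of the 82 other genes in the brightest 1% also had a ratio above 0.

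Among large subunit genes, the stalk proteins bind the elongation factors and activate their GTPases. RpLP2, an acidic stalk protein, had a signal of 46522 on the array labelled tdf and 34532 on the yw array, 1.35-fold higher. RpLP1, its partner in the stalk dimers, had 51243 on the array labelled tdf and 44315 on the yw array, 1.16-fold higher. RpLP0, which anchors those dimers to the rRNA, had 38931 on the array labelled tdf and 37551 on the yw array, 1.04-fold higher. All 3 ratios lay above 0 as deposited, but only that of RpLP2 did so after loess.

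Next come the proteins of the catalytic centre, the tunnel and the tRNA sites. RpL3, which reaches towards the peptidyl transferase centre, had 54936 on the array labelled tdf and 48442 on the yw array (log2 ratio 0.18). RpL17, which narrows the exit tunnel, had 44083 on the array labelled tdf and 38959 on the yw array (0.18). RpL39, a small protein of the same tunnel, had 44169 on the array labelled tdf and 34974 on the yw array (0.34). As deposited, the signals of these genes were thus all higher on the array labelled tdf, by 1.26-fold at most. After loess RpL3 was at -0.12, RpL17 at -0.11 and RpL39 at 0.05. RpL10Ab, of the mobile stalk that guides the departing tRNA, had 44975 on the array labelled tdf and 40002 on the yw array (0.17). RpL36A, beside the exit site for tRNA, had 27414 on the array labelled tdf and 24771 on the yw array (0.15). RpL23, at the subunit interface where the joining inhibitor eIF6 binds, had 32277 on the array labelled tdf and 28366 on the yw array (0.19). Loess took RpL10Ab to -0.12, RpL36A to -0.10 and RpL23 to -0.07.

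The largest ratio of all ribosomal protein genes belonged to RpL37A, a zinc-binding protein, with 55582 on the array labelled tdf and 38881 on the yw array, 1.43-fold higher. RpL37A had rank 4 by signal among all genes on the array labelled tdf and rank 16 on the yw array. RpL32, whose mRNA (rp49) is a common internal standard in fly expression work, had 26785 on the array labelled tdf and 23266 on the yw array, a log2 ratio of 0.20 as deposited and -0.04 after loess. RpL40, made as a fusion with ubiquitin, had 22397 on the array labelled tdf and 19264 on the yw array (0.22). RpL37-1, another zinc-binding protein, had 26883 on the array labelled tdf and 24916 on the yw array (0.11). Both genes were a little higher on the array labelled tdf as deposited, and below 0 after loess.

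Of the other large subunit genes, RpL29 hardly differed as deposited. It had 37177 on the array labelled tdf and 37058 on the yw array (log2 ratio 0.0046). As deposited, RpL27 was the only bright large subunit gene with a lower signal on the array labelled tdf. It had 31481 on the array labelled tdf and 32904 on the yw array (-0.06). After loess RpL29 was at -0.27 and RpL27 at -0.33, and 12 of the 15 bright large subunit genes lay below 0. RpL28, a subunit that budding yeast lacks, was dimmer, with 5005 on the array labelled tdf and 4657 on the yw array (0.10).

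The small subunit held the brightest gene of either array. RpS20, a protein of the subunit's head, had 73038 on the array labelled tdf and 56842 on the yw array, 1.28-fold higher, and ranked first among all 10843 genes on both. RpS21, known in flies as oho23B for the tissue overgrowth of its mutants, had 57357 on the array labelled tdf and 42097 on the yw array, 1.36-fold higher. RpS28b, near the channel where mRNA leaves, had 48663 on the array labelled tdf and 37177 on the yw array, 1.31-fold higher. These 3 had the highest ratios among bright small subunit genes, and each stayed above 0 after loess, at 0.04 for RpS20, 0.14 for RpS21 and 0.10 for RpS28b.

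A second set of small subunit genes had nearly one ratio. RpS12, which in flies is needed for Minute cells to be eliminated by their neighbours, had 48202 on the array labelled tdf and 43092 on the yw array (log2 ratio 0.16). RpS26, which contacts mRNA at the exit channel, had 46746 on the array labelled tdf and 41378 on the yw array (0.18). RpS15, whose tail reaches the decoding centre, had 44572 on the array labelled tdf and 39499.6 on the yw array (0.17). Their ratios lay within 0.1 of each other on the log2 scale. RpS30, made in mammals as a fusion with a ubiquitin-like protein, had 44499.5 on the array labelled tdf and 39436 on the yw array (0.17). RpS18, which forms a bridge to the large subunit, had 40932 on the array labelled tdf and 37005 on the yw array (0.15). RpS7 had 45884 on the array labelled tdf and 39301 on the yw array (0.22). All 6 genes were above 0 as deposited and below 0 after loess.

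RpS27A, the ubiquitin fusion of the small subunit, had 19383 on the array labelled tdf and 19717 on the yw array (-0.02), so that of the ubiquitin fusions 1 was higher and 1 lower. RpS29, a zinc-binding protein, had 7391 on the array labelled tdf and 7179 on the yw array (0.04).

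Most measured germ line and maternal genes had lower signals on the array labelled tdf. Of 13 such genes with a probe set, 9 were measured and their median log2 ratio was -1.22. Of the 9, 6 were lower by 2-fold or more and none higher by as much, against 6.19% and 3.6% of all measured genes. The brightest, the cyclin gene CycB, was 10.4-fold lower, and the maternal regulators smg and swa were at least 15.7-fold and at least 11.4-fold lower, while osk, vas, piwi and orb were below the floor on both arrays. The signal of mael was 202 on the array labelled tdf and 407 on the yw array. Smaller differences were seen for tud, 1.12-fold lower, and for gcl, the 1 measured gene above 0, 1.14-fold higher. The part of the germ line or of maternal RNA in the ribosomal protein signals was not tested. In whole embryos, fewer cells of a type and less RNA per cell cannot be told apart.

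Bright signals were the common feature of the group. Of the 37 genes, 26 (70.3%) were among the 108 brightest genes, in which they made up 24.1%. On each array 7 of the 10 brightest genes were ribosomal protein genes. Signals of different probe sets depend on their probes, so this order is one of brightness and not of transcript number. Signals of 40000 or more were reached by 16 of the 37 on the array labelled tdf and by 7 on the yw array, out of 25 genes of that brightness on the array labelled tdf and 10 on the yw array. The range of the 26 bright genes was wider on the array labelled tdf, where the highest signal was 3.77 times the lowest, against 2.95 times on the yw array. After RpS20, at 73038, the next brightest gene on the array labelled tdf was the cuticle gene TwdlM, at 57775. Detection or saturation calls of the probes were not used here, so a loss of signal at the top of the scale was not tested.

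The ratios of the 26 bright genes lay in a narrow band. Their SD was 0.18, against 0.35 for the 82 other genes in the brightest 1%, which ranged from -0.55 to 1.42. Of the 26, 15 had a log2 ratio from 0.11 to 0.22, and 6 had one from 0.34 to 0.52, namely RpL37A, RpLP2, RpL39, RpS20, RpS21 and RpS28b. The remaining 5, RpLP0, RpL29, RpS27A and RpL27 among them, were at 0.05 or less. The spread among probe sets of the same gene, which no ribosomal protein gene could supply because each had 1 probe set, was an SD of 0.53 over 278 genes above the floor and 0.32 over 5 genes with brighter probe sets (mean signal of at least 5000). No ratio of a bright ribosomal protein gene exceeded 0.53 in size, and 7 exceeded 0.32 in size, 6 of them above 0 and 1 below.

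A ratio above 0 was shared with other bright genes. In the brightest 1%, 23 of the 26 ribosomal protein genes (88.5%) and 67 of the 82 others (81.7%) had a ratio above 0. Their medians were 0.18 and 0.24. The likeness depended on the band. In the brightest 5%, 25 of 29 ribosomal protein genes (86.2%) and 326 of 513 others (63.5%) lay above 0, with medians of 0.17 and 0.14. The loess trend of all genes stood at 0.32 at the signal of RpS20 and at 0.22 at that of RpS27A. Relative to that trend 20 of the 26 bright genes lay below 0, with a median of -0.11, while the 82 other genes had a median of 0.02. Quantile normalisation, which gives both arrays the same distribution, brought the 26 to a median of -0.04, with 7 above 0. Rack1, a protein of the small subunit whose symbol lies outside the rule, had 44826 on the array labelled tdf and 39800 on the yw array (0.17). The labelled controls added at hybridisation were dimmer than most of the 26 genes. Their brightest probe set, for CreX, had 22489 on the array labelled tdf and 23591 on the yw array (-0.07). The median signal of the 26 genes was 44334 on the array labelled tdf and 37364 on the yw array. The probe set for the 3′ part of 18S rRNA, the RNA of the small subunit, had 29629 on the array labelled tdf and 25310 on the yw array, while that for its 5′ part had 920 on the array labelled tdf and 1693 on the yw array. The ratio of 3′ to 5′ signal of this RNA was thus 32.2 on the array labelled tdf and 14.9 on the yw array. For actin it was 52.3 on the array labelled tdf and 32.7 on the yw array, and for eIF-4a 56.6 on the array labelled tdf and 45.5 on the yw array. For GAPDH it went the other way, with 17.3 on the array labelled tdf and 22.8 on the yw array. The part of RNA quality in the ratios was not tested.

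**Figure D2:**
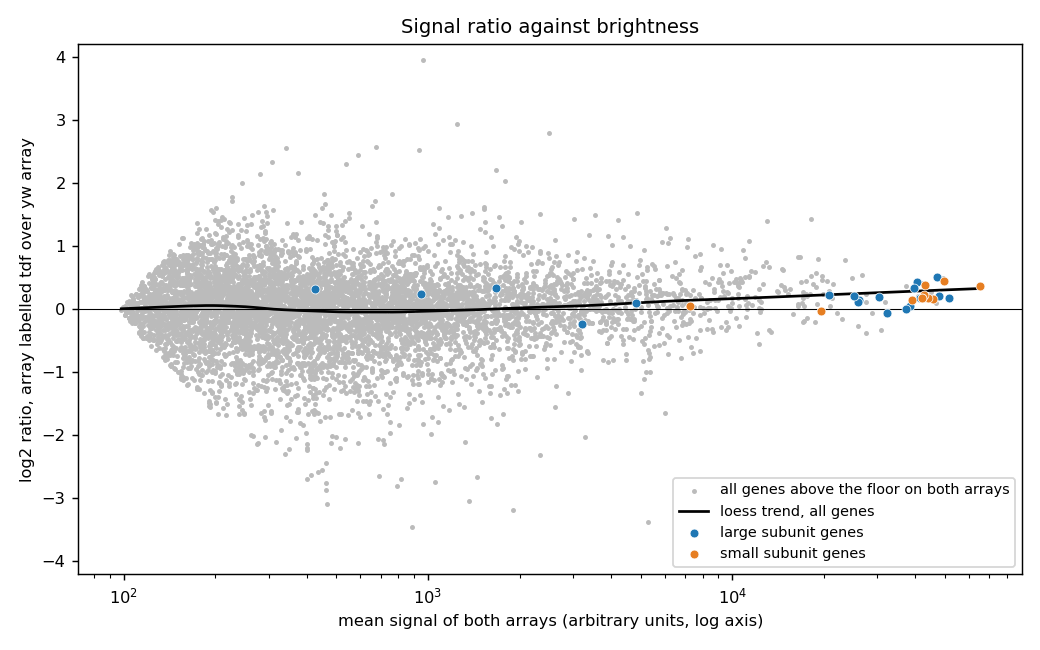
Log2 ratio (array labelled tdf over yw array) against the mean signal of both arrays on a log axis, for each gene with both signals at or above the floor (grey), large subunit genes (blue) and small subunit genes (orange), with the loess trend of all genes as a black line. The trend climbs to 0.32 at the right edge, and 20 of the 26 bright ribosomal protein genes lie under it; 1 small subunit gene is not marked in colour.

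**Figure D3:**
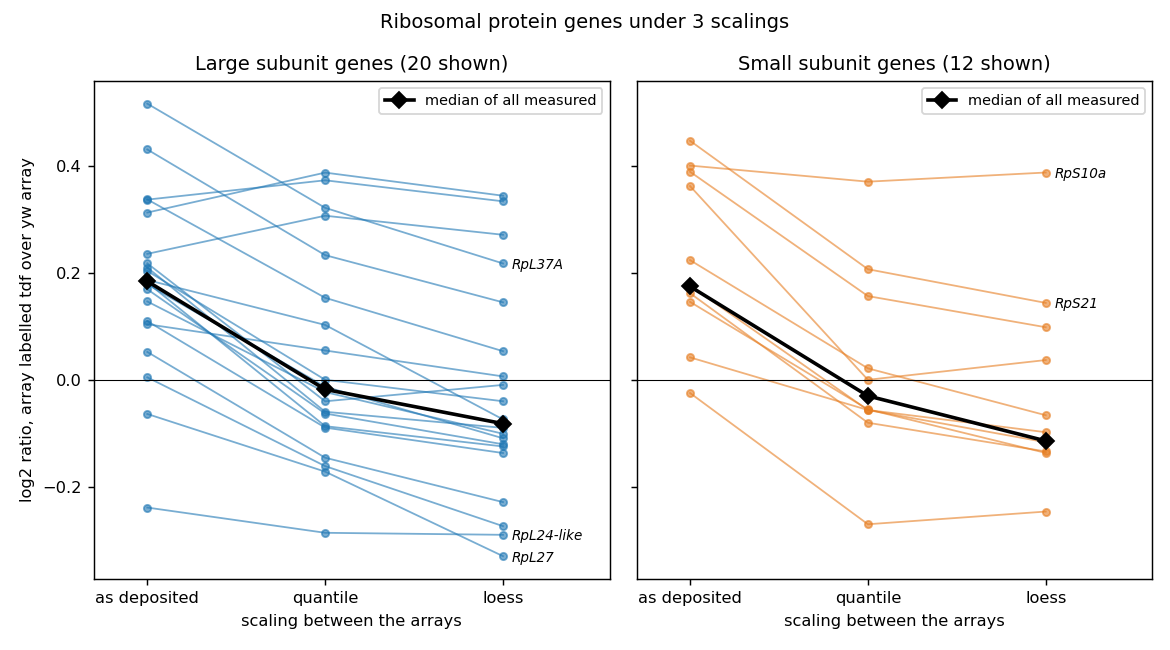
Log2 ratios of the 20 measured large subunit genes and 12 of the 13 measured small subunit genes as deposited, after quantile normalisation and after loess; each line is 1 gene and black diamonds are medians over all measured genes of the subunit. Both medians cross 0, from 0.18 and 0.17 as deposited to -0.08 and -0.11 after loess, while RpL37A and RpS21 stay above 0 throughout.

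The sign of many single ratios depended on the scaling. Under the 5 scalings (as deposited, centred on the median, quantile, and loess fitted with and without these genes), the ratio stayed above 0 for 10 of the 33 and below 0 for 4. Those always above 0 were RpL37A, RpLP2, RpL39, RpS21 and RpS28b among the bright genes and RpL28, RpL37-2, RpL7-like, RpLP0-like and RpS10a among the dimmer ones. Those always below 0 included RpL27, RpS27A and RpL24-like. RpS20 was above 0 in 4 scalings and at 0 under quantile normalisation, where the brightest gene of both arrays takes the same value. The other 18 changed sign.

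Some paralogues and relatives of the subunit genes were dim. RpL10Aa, the paralogue of RpL10Ab, had 26.2 on the array labelled tdf and 54.0 on the yw array, and RpS28a, the paralogue of RpS28b, had 26.3 on the array labelled tdf and 23.5 on the yw array. RpL22-like, a germ line and eye relative of RpL22, had 26.1 on the array labelled tdf and 22.5 on the yw array. RpS19b, a germ line copy of RpS19, had 43.4 on the array labelled tdf and 91.4 on the yw array. These 4 lay below the floor on both arrays and have no ratio here. With a floor at the 25th percentile RpS19b was measured and was the 1 ribosomal protein gene at least 2-fold lower.

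Of the measured paralogues, RpL37-2 had 472 on the array labelled tdf and 380 on the yw array (log2 ratio 0.31), far dimmer than RpL37-1 on both arrays. RpS10a had 128 on the array labelled tdf and 87.0 on the yw array, below the floor, so it was at least 1.32-fold higher. Near the floor, 3 of 4 control probe sets for yeast genes, for which fly RNA holds no target, were above 97.3 on the array labelled tdf and 0 of 4 on the yw array, and the part of such background in the RpS10a signal was not tested.

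The -like genes that were measured are relatives of yeast factors that take part in assembly of the large subunit. RpLP0-like, related to yeast Mrt4, had 1874 on the array labelled tdf and 1484 on the yw array, 1.26-fold higher. RpL7-like had 1024 on the array labelled tdf and 870 on the yw array, 1.18-fold higher. RpL24-like, related to yeast Rlp24, had 2937 on the array labelled tdf and 3464 on the yw array, 1.18-fold lower. The 3 ratios did not share a direction. Each kept its sign under the 5 scalings, all of which rest on the same 2 arrays. Each was smaller in size than 0.53, the SD among probe sets of the same gene.

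Other genes of protein synthesis are given for comparison as counts and medians. The 64 mitochondrial ribosomal protein genes, which serve the separate ribosome of mitochondria, were all measured, with a median log2 ratio of 0.19 as deposited and also 0.19 after loess, on the same side of 0 in both. Of them 3 were higher by 2-fold or more and none lower by as much, a share close to the 3.6% of all measured genes for the higher ones and below the 6.19% for the lower ones. The highest, mRpL47, had 1636 on the array labelled tdf and 540 on the yw array, 3.03-fold higher. mRpS31 was 2.83-fold higher and mRpL14 2.22-fold higher, and the brightest, mRpL28, had 5854 on the array labelled tdf and 4303 on the yw array. The difference between the mitochondrial and cytosolic genes was not tested.

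Genes that build ribosomes ran lower. The 38 ribosome biogenesis genes had a median log2 ratio of -0.17 as deposited and -0.21 after loess, with 12 above 0. By 2-fold or more, 1 was higher and 2 were lower, shares close to the 3.6% and 6.19% of all measured genes. RIOK1, a kinase-like factor of late small subunit maturation, had 217 on the array labelled tdf and 443 on the yw array, 2.04-fold lower. The lowest ratio belonged to nito (2.16-fold lower), an RNA-binding protein of the mRNA methylation machinery rather than a dedicated assembly factor, and the highest to CG8064 (2.02-fold higher). CG8064 had 244 on the array labelled tdf and 121 on the yw array. For nito the signals were 97.5 on the array labelled tdf and 211 on the yw array, so that each gene had a signal near the floor. The brightest of the list, Non1, a nucleolar GTPase, had 9774 on the array labelled tdf and 10807 on the yw array. The 22 translation initiation genes had a median of -0.11 with none 2-fold apart, and of them eIF3c, a core subunit of the initiation factor that binds the small subunit, was 1.92-fold lower, and eIF3b 1.46-fold lower. The poly(A)-binding protein gene pAbp had 14249 on the array labelled tdf and 9506 on the yw array. The brightest, eIF4A, an RNA helicase, had 27370 on the array labelled tdf and 34419 on the yw array.

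The 6 elongation and termination genes had a median log2 ratio of 0.07 with none 2-fold apart. Of these eEF1gamma had 19518 on the array labelled tdf and 16602 on the yw array, eEF1delta was 1.14-fold lower, eEF1alpha2 1.29-fold higher, and the brightest, eEF5, had 21337 on the array labelled tdf and 20643 on the yw array. Among 19 measured genes of growth control, 2 were higher and 2 lower by 2-fold or more, against 3.6% and 6.19% of all measured genes, so that these counts rest on few genes, and the median was 0.06. The TOR complex subunit raptor, with 264 on the array labelled tdf and 109 on the yw array, was 2.41-fold higher. The transcription factor REPTOR, which acts when TOR is low, had 264 on the array labelled tdf and 118 on the yw array, 2.25-fold higher. These yw signals were near the floor. The part in them of the background seen in the yeast control probe sets was not tested. Dref, a transcription factor that binds many growth genes, was 2.01-fold lower, and the translational repressor pum 3.43-fold lower, with 200 on the array labelled tdf and 686 on the yw array. The brightest, REPTOR-BP, the partner of REPTOR, had 4085 on the array labelled tdf and 3578 on the yw array.

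**Figure D4:**
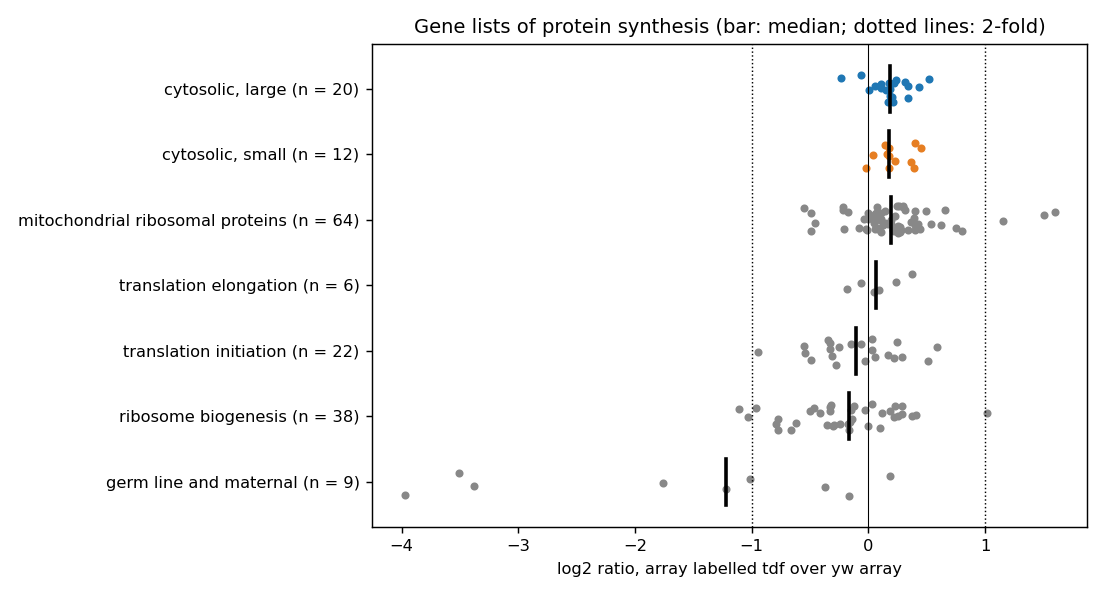
Log2 ratios (array labelled tdf over yw array) of the measured genes of each list, 1 point a gene, with medians as black bars and 2-fold limits as dotted lines. The 20 large and 12 of the 13 small subunit genes lie within the limits around subunit medians of 0.18 and 0.17, and the 9 germ line and maternal genes have a median of -1.22.

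In the RefSeq gene order none of the 37 genes lay among the 50 neighbours of apt on either side, and 4 lay among the 250.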

How the data were processed

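The authors deposited linear signal intensities, 1 for each probe set of an array, computed with MAS5 per the submitters' processing notes (version and target not given in the sources used here). Leaving out 2% of probe sets at each end, both arrays had a mean of 500.1, which shows a scaling of whole arrays. Of 14010 probe sets, 44 were controls, 12442 named 1 gene, 327 several and 1197 none. Symbols were updated by gene ID to those of RefSeq for the Release 6 plus ISO1 MT assembly, which lists 92 RpL and RpS genes; 55 of them had no probe set of their own here and were not analysed. A gene was represented by its brightest probe set, and each of the 37 ribosomal protein genes had 1; another 2 probe sets that name such a gene together with a second gene were not used. The floor was the 40th percentile of gene probe sets over both arrays.

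The members, lists, scalings and limits were chosen with earlier results of these data known. Of the 37 members, 1 is counted in the totals but is not reported here by name, and the others are named; in lists of protein synthesis, growth control and the germ line the 3 largest ratios and the brightest gene were named, in other marker lists only 3 cuticle genes, and Dref, mael, Rack1 and the germ line genes below the floor were chosen after their values were seen. Alternatives were centring, quantile normalisation, loess with a span of 0.3, other floors (25th and 60th percentile), other probe set choices and limits of 1.5-fold and 3-fold. Steps were tested on simulated arrays. With 1 array per genotype the number of arrays limits the precision. Software was statsmodels 0.14.6 for loess, pandas 2.3.3, numpy 2.4.6, scipy 1.17.1 and matplotlib 3.10.9 under Python 3.11.15.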

Additional observations from a re-analysis of the deposited data

How the results depend on the processing

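The median log2 ratio of the ribosomal protein genes (0.18) turned to -0.030 under quantile normalisation, -0.10 under loess and -0.13 under loess fitted without these genes, the last added after the data were examined. In the same 3 settings the large subunit median was -0.018, -0.082 and -0.12 and the small subunit median -0.030, -0.11 and -0.15, while 12, 11 and 11 of the 33 genes had a ratio above 0 in place of 29. Over the measured genes, the difference of the subunit medians lay between 0.0072 and 0.035 in the settings tried; over the bright genes alone it was -0.010 under quantile normalisation. No ribosomal protein gene was at least 2-fold apart in any setting tried, except 1 lower gene, RpS19b, with a floor at the 25th percentile. Over all genes, 607 were higher and 683 lower at that floor, 119 and 267 with a floor at the 60th percentile, 1005 and 1171 at 1.5-fold and 35 and 136 at 3-fold, against 275 and 473. Other probe set choices changed no value of a ribosomal protein gene, since each has 1 plain probe set. No paired analysis was possible because each genotype has 1 array. The signal over background limits the dim paralogues.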
